A study of Drosophila melanogaster with 6 samples.

Results

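The long non-coding RNA genes noe and Hsromega took large shares of the non-coding counts of adult Drosophila brain libraries, noe in all 4 and Hsromega in the 2 libraries numbered 2. They are 2 of the 16725 genes of the count table, and 2 of its 2114 genes for long non-coding RNA (lncRNA). Both were chosen from their measured values in these 4 libraries: noe because its level, in counts per 1000000 of the library (CPM), was stable, and Hsromega because its CPM changed with the number of the library. Levels, ranks, shares and differences between the library numbers are therefore given as a description, with no test. Only the difference of Hsromega between the library labels was tested. The choice looked at all 4 libraries, so it also limited what that test could show.

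RNA came from dissected brains of 5-day-old adult Canton-S flies, a wild-type laboratory strain, with about 15 brains pooled per sample, and no group carried a mutation or a drug treatment. In the rRNA-depleted group, DNA probes were hybridized to ribosomal RNA and RNase H digested the hybrids. In the polyA-enriched group, RNAs with a polyA tail were selected. Each group had 2 brain libraries, numbered 1 and 2 in the labels, and the study's methods state that extracted total RNA was split between both preparations. Libraries of S2 cells, a cultured embryonic line, were not analysed here.

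lncRNAs are transcripts that are not translated into a long protein, and many of them are processed like messenger RNAs, with a polyA tail. Hsromega (heat shock RNA omega) is one of the longest studied. It is transcribed from the heat-inducible puff 93D of the polytene chromosomes and makes long nuclear transcripts that carry a tract of tandem repeats, beside a short spliced transcript that is exported to the cytoplasm. The nuclear transcripts organise omega speckles, nuclear bodies that hold hnRNPs and other RNA-binding proteins and that lose their proteins to the locus after heat shock. No role is given here for noe.

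The locus of noe is short and simple (identifier FBgn0026197, named lncRNA:noe in the annotation). In the dm6 genome it lies on chromosome 3L from 17400272 to 17401348, on the minus strand, as a single transcript with 1 exon of 1077 bp. This exon lies inside an intron of 2878 bp that all 5 annotated transcripts of blot share, on the same strand. The gene blot (bloated tubules) codes for a protein related to neurotransmitter transporters. No exon of blot overlaps noe, so a read within noe lies outside the annotated exons of blot.

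The locus of Hsromega is long and has many annotated products (identifier FBgn0001234). On chromosome 3R it spans 21296127 to 21317836 of the plus strand, with 7 annotated transcripts between 1176 and 21216 bp after splicing. Of these, 4 have a single exon, and 3 have 2 exons around the same intron of 712 bp. The shortest is a spliced product of 2 exons, and the longest is a single exon that reads through the intron and on to the far end of the locus. Merged exons cover 21710 bp, which is the whole gene, so counts per gene cannot separate the short spliced RNA from the long nuclear RNAs. Reads from tandem repeats can match several places, and how such reads were counted was not given in the sources used here. Of the 16506 genes with an annotated length, 17 were longer in exons than Hsromega, and none of the 2067 lncRNA genes with a length was. The map of both loci shows this contrast in size.

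**Figure D1:**
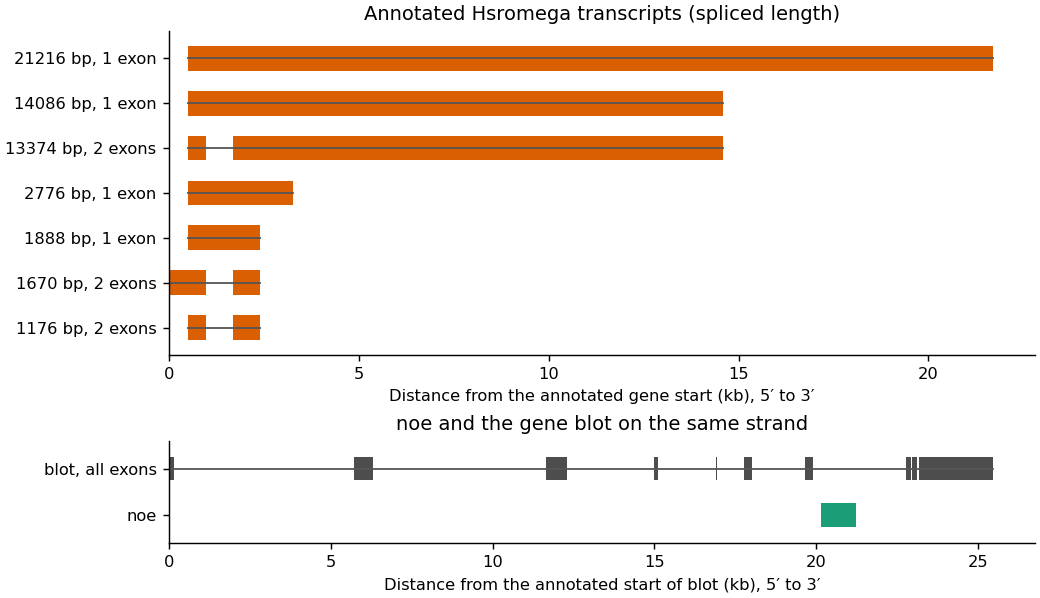
Annotated transcripts of Hsromega (upper panel, 1 line per transcript, boxes for exons, spliced length beside each) and noe with the merged exons of blot (lower panel), both against the distance in kb from the annotated start of Hsromega or blot, 5′ to 3′. The 7 Hsromega transcripts start within 1 stretch and differ mainly in where they end, and the single exon of noe sits between exons of blot.

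The libraries held 14295047 (rRNA-depleted 1), 12142737 (rRNA-depleted 2), 13821678 (polyA-enriched 1) and 11838449 (polyA-enriched 2) counts, and a floor of 3 counts was between 2.1e-05% and 2.53e-05% of a library. In a principal component analysis of log2 CPM, the component with the most variance (51.2%) separated the libraries by number, and the next (46.3%) by label. Each library is therefore called by its own label throughout. snoRNA and snRNA genes, whose products mostly lack a polyA tail, also separated the libraries by number. Whether each label matches the preparation of its library could not be settled from the files, so differences by label, that of Hsromega included, are differences between the labels as given. The defining markers of neurons and glia were present in every library, with elav between 584.2 and 837.2 CPM and repo between 125.4 and 199.1 CPM. Intervals on shares are 95% Wilson intervals and cover counting error only. The smallest p of an exact two-sided permutation test is 0.33 for groups of 2.

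In rRNA-depleted 2 and polyA-enriched 2, noe gave 83622 and 89473 counts, against 107214 in rRNA-depleted 1 and 106078 in polyA-enriched 1. Scaled to the library totals, these were 6887 and 7558 CPM in the libraries numbered 2, against 7500 and 7675 CPM in those numbered 1. The groups by number overlapped, since polyA-enriched 2 stood above rRNA-depleted 1. The counting intervals were narrow, from 6840 to 6933 CPM in rRNA-depleted 2 at the low end and from 7629 to 7721 CPM in polyA-enriched 1 at the high end. The spread between libraries, a coefficient of variation of 4.77% over the 4, was thus larger than counting error but small in size.

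noe ranked 2 by CPM among all genes in each of the 4 libraries, and first among the ncRNA genes. It took 0.689% and 0.756% of all counts in rRNA-depleted 2 and polyA-enriched 2, against 0.750% and 0.767% in rRNA-depleted 1 and polyA-enriched 1. Per kb of annotated exon, a scale on which genes of different length can be compared, its level was 6394 and 7017 CPM per kb in the libraries numbered 2, against 6964 and 7126 CPM per kb in those numbered 1. On this scale noe ranked first in 3 libraries and 2 in rRNA-depleted 2, among the 16506 genes with a length.

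Hsromega gave 70707 counts in rRNA-depleted 2 and 60724 in polyA-enriched 2, against 4357 in rRNA-depleted 1 and 5165 in polyA-enriched 1. These were 5823 and 5129 CPM in the libraries numbered 2, against 304.8 and 373.7 CPM in those numbered 1. Both libraries numbered 2 were high and both numbered 1 were low, whichever label they carried, and the groups by number did not overlap. The level was 19.1 times as high in number 2 as in number 1 within the rRNA-depleted label, and 13.7 times as high within the polyA-enriched label. Means by number were 5476 ± 490.4 CPM in the libraries numbered 2 and 339.2 ± 48.7 CPM in those numbered 1 (SD, n = 2 each). Because extracted RNA was split, the 2 libraries of a number may be preparations of the same extract. These SDs may then hold no spread between animals. In bulk brain RNA, more cells that hold an RNA and more of that RNA per cell cannot be told apart.

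The rank of Hsromega among all genes moved with its level. It ranked 4 in rRNA-depleted 2 and 3 in polyA-enriched 2, against 790 in rRNA-depleted 1 and 564 in polyA-enriched 1. Among ncRNA genes it ranked 2 in both libraries numbered 2, behind noe, and 5 in both numbered 1. Because the gene is long, its level per kb of exon was lower down the order: 268.2 and 236.3 CPM per kb in rRNA-depleted 2 and polyA-enriched 2, against 14.0 and 17.2 CPM per kb in rRNA-depleted 1 and polyA-enriched 1. These stood at ranks 86 and 155 in the libraries numbered 2, against ranks 4744 and 4409 in those numbered 1. The plot of CPM by library shows the even bars of noe beside the high and low pairs of Hsromega.

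**Figure D2:**
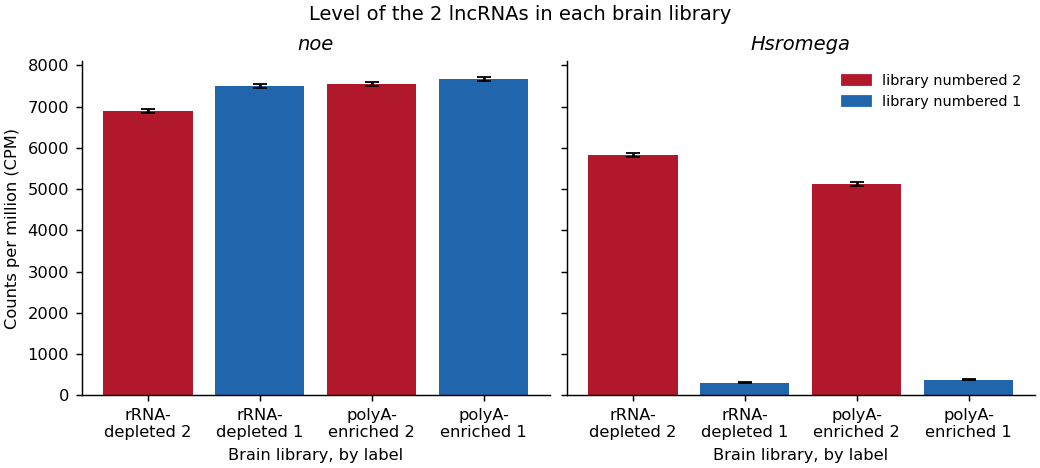
Level of noe (left panel) and Hsromega (right panel) in CPM, on 1 axis from 0, with a bar for each brain library and 95% Wilson intervals of the counts as error bars. noe lies between 6887 and 7675 CPM in the 4 libraries, and Hsromega lies at 5129 and 5823 CPM in the libraries numbered 2, against 304.8 and 373.7 CPM in those numbered 1.

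The ratio between both RNAs within a library does not depend on the scaling of libraries to each other. noe gave 1.18 and 1.47 counts for each count of Hsromega in rRNA-depleted 2 and polyA-enriched 2, against 24.6 and 20.5 in rRNA-depleted 1 and polyA-enriched 1. The counts of both genes were thus near each other in the libraries numbered 2. Per kb of exon, noe stood 23.8 and 29.7 times above Hsromega in the libraries numbered 2, and 496.0 and 414.0 times above it in those numbered 1.

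Set among the 106 genes with a mean of at least 1000 CPM, the members stood near opposite ends of the spread. Of these genes, 5 had a lower coefficient of variation than noe, and none had a higher one than Hsromega, at 102.5%. The median was 24.6%. The genes next to Hsromega were Yp3 (102.2%), Yp2 (98.2%) and Yp1 (95.6%), which code for yolk proteins. Their high and low libraries were not those of Hsromega: Yp3 had 215.7 and 260.9 CPM in rRNA-depleted 1 and 2, against 3478 and 2367 CPM in polyA-enriched 1 and 2. Msp300, a very large nuclear and muscle anchoring protein of the nesprin family, had 4914 and 4826 CPM in rRNA-depleted 2 and polyA-enriched 2, against 1159 and 946.8 CPM in rRNA-depleted 1 and polyA-enriched 1. By the ratio of the highest to the lowest library, noe had 1.11, the median gene of this set 1.73 and Hsromega 19.1, and 1 gene (Yp2, 22.3) exceeded Hsromega.

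The comparison that the study was designed for sets the rRNA-depleted libraries against the polyA-enriched ones. The study names Hsromega (as hsr-omega) among ncRNAs that were prominently higher in its rRNA-depleted samples. Such a difference was not called here between the labels as given. For Hsromega the mean was 3064 ± 3902 CPM in the rRNA-depleted libraries and 2752 ± 3363 CPM in the polyA-enriched libraries (SD, n = 2 each), so each SD exceeded its mean. edgeR's quasi-likelihood test on TMM-normalized counts gave a log2 fold change of 0.24 with a standard error of 1.76, and a Benjamini-Hochberg adjusted p of 1.00 over 9737 genes. With the replicate number as a block, which pairs libraries of the same number, the log2 fold change was 0.0024 with a standard error of 0.11, and edgeR's adjusted p was 0.99. Neither fit called Hsromega different between the labels, nor did DESeq2 without the block (0.27, SE 2.04). Without the block the standard error was too wide to exclude a large difference. Choosing a gene that follows the number put this spread within each label, so the fit without the block could hardly call it. The choice also favoured a gene whose labels lay close together within a number. The fit with the block is therefore no independent test of the study's statement on Hsromega. edgeR's value without the block also turned with single libraries. It was -3.21 without rRNA-depleted 2, -0.67 without polyA-enriched 1, 1.17 without rRNA-depleted 1 and 3.16 without polyA-enriched 2.

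Within a number, the labels lay close together for Hsromega and on either side of each other. The log2 ratio of rRNA-depleted over polyA-enriched CPM was 0.18 between the libraries numbered 2 and -0.29 between those numbered 1. For noe, which was chosen for its stability, the labels are described with no test. Its mean was 7193 ± 433.8 CPM in the rRNA-depleted libraries and 7616 ± 82.7 CPM in the polyA-enriched libraries (SD, n = 2 each). The fitted log2 fold change of noe was -0.030 with a standard error of 0.19, or 0.10 with the replicate block, and it was 0.039 with the size factors of DESeq2, so its sign depended on the scaling.

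Over all genes, edgeR called 0 of 9737 (0%) different between the labels at an adjusted p under 0.05 and a change of more than 1 on the log2 scale, up or down. At an unadjusted p under 0.05 there were 1103 genes, and DESeq2 called 548. With the replicate block edgeR called 1214 genes (12.5%), of which 34 were higher (0.349%) and 1180 lower (12.1%) in the rRNA-depleted libraries. Marker genes of other tissues near the brain were among those lower with the block: 9 of 10 of photoreceptors, 6 of 7 of fat body and 8 of 9 of muscle. Their summed level in rRNA-depleted 1 and 2, against polyA-enriched 1 and 2, was 996.1 and 1220 against 3944 and 3292 CPM for photoreceptor markers, 1177 and 2363 against 15089 and 13756 CPM for fat body markers, and 32.8 and 64.9 against 267.8 and 354.8 CPM for muscle markers. noe was even across the 4 libraries and Hsromega was high in 1 library of each label, which are the traits they were chosen for. A part of these tissues in the level of either gene was not tested.

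The fitted difference by number put both members in the context of all genes. For libraries numbered 2 over those numbered 1, edgeR gave a log2 fold change of 4.09 with a standard error of 0.29 for Hsromega, against 0.0052 with a standard error of 0.29 for noe. This contrast chose the members, so their values in it are a description and no test is read from it about them. The 2 libraries of a number may share an extract, so p-values by number may measure only the spread between preparations. In the same fit 811 of 9737 genes were called (8.33%), of which 575 were higher (5.91%) and 236 lower (2.42%) in the libraries numbered 2, and 3365 of 9737 had an unadjusted p under 0.05. With the label as a block there were 1554 calls (16.0%, as 10.5% higher and 5.42% lower). Without rRNA-depleted 1, rRNA-depleted 2 or polyA-enriched 2 there were 0 calls, and without polyA-enriched 1 there were 5, so the calls by number rested on all 4 libraries. At an unadjusted p under 0.05 there were 1918, 1977, 2459 and 2204 genes in these 4 fits.

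Hsromega was not the gene with the largest difference by number. Its log2 fold change was exceeded by 239 of 9737 genes, of which 124 were among 9219 protein-coding genes and 54 among 376 lncRNA genes. Other classes of ncRNA also stood higher in the libraries numbered 2. The median log2 fold change was 4.27 for 76 snoRNA genes, which guide chemical modification of rRNA, and 5.18 for 10 genes of the snRNA class. That class takes in small nuclear RNAs of the spliceosome and others. It was 3.93 for 27 miRNA genes. edgeR called 27 of the snoRNA, 9 of the snRNA and 13 of the miRNA genes higher in the libraries numbered 2, and called 0 of them lower. For lncRNA genes the median was 0.23, with 65 of 376 called higher and 4 called lower.

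Among genes that code for proteins, length went with the difference by number. The median log2 fold change of the libraries numbered 2 over those numbered 1 was -0.56 for 1267 genes of up to 1 kb of exon, -0.22 for 2863 genes of 1 to 2 kb and 0.14 for 3618 genes of 2 to 5 kb. It was 0.59 for 1129 genes of 5 to 10 kb, 0.81 for 234 genes of 10 to 20 kb and 1.20 for 23 genes of over 20 kb. Longer genes thus stood higher in the libraries numbered 2. Hsromega, at 21710 bp, was above all 23 protein-coding genes of over 20 kb, whose highest value was 2.48. Since Hsromega was chosen for its difference by number, its place above them is a description only. It was the single lncRNA gene tested of that length, and the 4 lncRNA genes of 10 to 20 kb had a median of 2.08 and a highest value of 3.99. noe, at 1077 bp, had 0.0052, between the medians of its length group, which were -0.22 for protein-coding genes and 0.075 for 98 lncRNA genes. The part of length in the level of Hsromega was not tested.

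**Figure D3:**
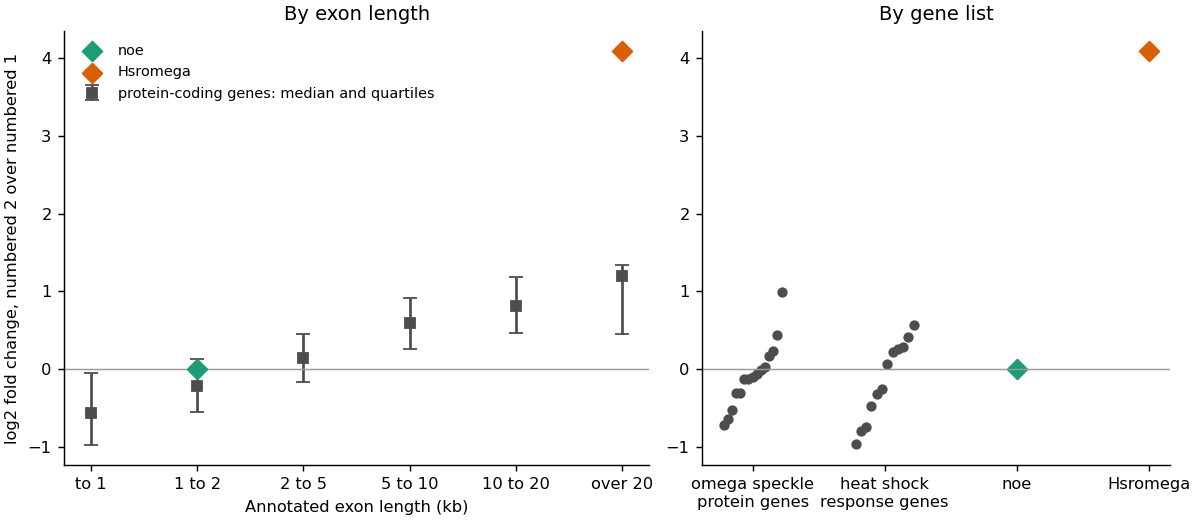
Log2 fold change of libraries numbered 2 over libraries numbered 1, by exon length in kb (left panel, squares for the median and bars for the quartiles of protein-coding genes) and for 2 gene lists (right panel, 1 point per gene), with noe and Hsromega as diamonds. Medians of protein-coding genes run from -0.56 up to 1.20 with length, Hsromega lies at 4.09, and all tested genes of both lists lie below 1.

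The ncRNA share of a library was higher in the libraries numbered 2, as was Hsromega, which was chosen for that difference. ncRNA genes took 2.38% and 2.40% of all counts in rRNA-depleted 2 and polyA-enriched 2, against 1.87% and 1.89% in rRNA-depleted 1 and polyA-enriched 1. The mean difference between the numbers was 0.514 percentage points. Without Hsromega the shares were 1.80% and 1.89% in the libraries numbered 2, against 1.84% and 1.85% in those numbered 1, and the mean difference was 6.2e-05 points, from -0.040 points within the rRNA-depleted label and 0.040 points within the polyA-enriched label. Without noe the shares were 1.69% and 1.65%, against 1.12% and 1.12%, and the mean difference was 0.55 points. Removing both left 1.11% and 1.13%, against 1.09% and 1.08%. The small differences left without Hsromega were sums over genes that differed in both directions. CR42862 and CR31451 stood lower in the libraries numbered 2, and most snoRNA, snRNA and miRNA genes stood higher.

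By label the ncRNA share was 2.13% ± 0.36 in the rRNA-depleted libraries and 2.15% ± 0.36 in the polyA-enriched libraries (SD, n = 2 each), a difference of -0.019 points that was far below the spread. Both members together made up 53.4% and 52.8% of the ncRNA counts in rRNA-depleted 2 and polyA-enriched 2, against 41.7% and 42.6% in rRNA-depleted 1 and polyA-enriched 1. The part of Hsromega was 24.4% and 21.3% in the libraries numbered 2, against 1.63% and 1.98% in those numbered 1. The part of noe was 28.9% and 31.5%, against 40.1% and 40.7%. The share of noe among ncRNA counts thus differed between the numbers while its share of all counts hardly did, because the sum it was divided by was larger in the libraries numbered 2.

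**Figure D4:**
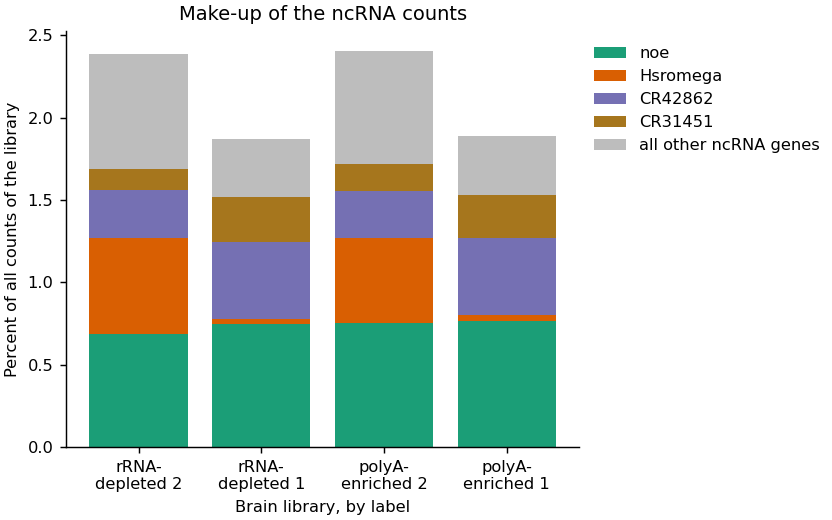
Percent of all counts of each brain library that fell on ncRNA genes, stacked from the bottom as noe, Hsromega, CR42862, CR31451 and all other ncRNA genes. The stacks reach 2.38% and 2.40% in the libraries numbered 2, against 1.87% and 1.89% in those numbered 1, and the Hsromega block is 0.582% and 0.513% in the libraries numbered 2, against 0.0305% and 0.0374% in those numbered 1.

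Among lncRNAs, counts were concentrated in few genes. noe, CR42862, Hsromega and CR31451 together held 78.9% and 80.4% of the lncRNA counts in rRNA-depleted 2 and polyA-enriched 2, against 81.6% and 81.5% in rRNA-depleted 1 and polyA-enriched 1. The sum was even while its parts were not. CR42862 had 2912 and 2832 CPM in the libraries numbered 2, against 4669 and 4632 CPM in those numbered 1. CR31451 had 1263 and 1689 CPM in the libraries numbered 2, against 2688 and 2598 CPM in those numbered 1. For both genes the libraries numbered 2, in which Hsromega was high, stood below those numbered 1. edgeR's adjusted p for number was 0.16 for CR42862 and 0.098 for CR31451, which did not pass. With the label as a block, edgeR's adjusted p was 4.0e-07 for CR42862 and 1.9e-09 for CR31451. Their log2 fold changes in that fit, -0.62 and -0.78, stayed within the threshold of 1.

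The 10 lncRNA genes that came next to the members by mean CPM showed each kind of behaviour. In 3 of them both libraries numbered 2 stood above both numbered 1, and edgeR called these 3 higher (5.91% of all genes). In 6 of them both libraries numbered 2 stood below both numbered 1. Of these, edgeR called 0 lower (2.42% of all genes), or 2 with the label as a block (5.42% of all genes). DESeq2 called 2 lower, beside 381 of all 9737 genes. The share of all genes that stood apart by number is not given here, so the 3 and the 6 are a description only. CR43459 had 507.0 and 513.4 CPM in rRNA-depleted 2 and polyA-enriched 2, against 20.1 and 25.3 CPM in rRNA-depleted 1 and polyA-enriched 1 (log2 fold change 4.57, SE 0.18, edgeR's adjusted p 0.021). CR45054 had 374.7 and 382.4 CPM, against 15.0 and 16.0 CPM (4.69, SE 0.12, edgeR's adjusted p 0.012). Their folds by number exceeded that of Hsromega. Both lie on the plus strand of chromosome 3R, CR45054 from 10083381 to 10090525 and CR43459 from 10093761 to 10101356. Whether they are parts of the same transcript was not tested, so they may not be separate examples. CR44327 had 116.7 and 102.7 CPM, against 40.3 and 38.4 CPM (1.56, SE 0.14, edgeR's adjusted p 0.030).

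On the stable side, CR45600 had 132.1 and 114.1 CPM in the libraries numbered 2, against 135.9 and 125.5 CPM in those numbered 1. roX1, which with roX2 is an RNA of the complex that raises transcription of the male X chromosome, had 63.3 and 60.4 CPM in the libraries numbered 2, against 63.4 and 66.9 CPM in those numbered 1. roX2 was near 1 CPM, at 14 and 12 counts in the libraries numbered 2, against 9 and 16 counts in those numbered 1. Of the 17 lncRNA genes with a mean of at least 50 CPM, noe, roX1 and CR45600 were the 3 whose highest library was at most 1.5 times the lowest. In 4 of the 17, Hsromega among them, it was over 10 times the lowest, and the median ratio was 2.76.

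**Figure D5:**
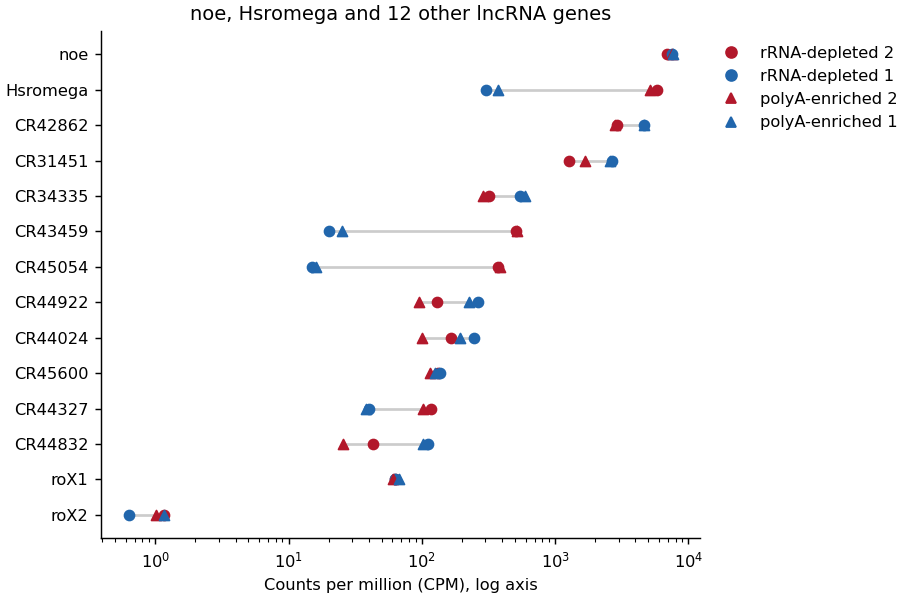
Level in CPM (log axis) of noe, Hsromega, the 10 lncRNA genes next in mean level, roX1 and roX2, with 1 point per brain library and a line from the lowest to the highest. The points of noe and roX1 nearly coincide, and those of Hsromega, CR43459 and CR45054 fall apart by library number, with the libraries numbered 2 to the right.

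The genes whose profiles were most like those of the members were found by the Euclidean distance between log2 CPM profiles over the 4 libraries, each centred on its mean, among 3679 genes with a mean of at least 50 CPM. The 5 nearest to noe, at distances between 0.035 and 0.041, were all protein-coding: CG31145, ClC-a (a chloride channel), CG12121, CG14657 and Naa60 (an N-terminal acetyltransferase). CG31145, the nearest, had 141.5 and 152.1 CPM in rRNA-depleted 2 and polyA-enriched 2, against 149.6 and 152.9 CPM in rRNA-depleted 1 and polyA-enriched 1. For Hsromega the nearest lay much farther away, at 0.51 for CR43459, 0.56 for RNaseP:RNA (the RNA of the enzyme that trims tRNA precursors) and 0.63 for CR45054. They were followed by Dop2R, a dopamine receptor, at 1.06 and Arc1, an activity-regulated gene with a retroviral Gag-like protein, at 1.20. Likeness over 4 libraries says only that levels ran in parallel. RNaseP:RNA had 244.4 and 256.7 CPM in the libraries numbered 2, against 21.8 and 19.1 CPM in those numbered 1. Dop2R had 758.1 and 700.5 CPM, against 95.3 and 87.6 CPM.

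The genes around the members did not share their profiles. Exons of blot, the host of noe, gave 7.83 and 12.6 CPM in rRNA-depleted 1 and 2, against 19.8 and 30.7 CPM in polyA-enriched 1 and 2. The label difference of blot did not pass without the block (log2 fold change -1.24, SE 0.42, edgeR's adjusted p 0.36) and passed with the replicate block (-1.25, SE 0.17, edgeR's adjusted p 5.2e-09), where blot was lower in the rRNA-depleted libraries. Per kb of exon, noe stood 4089 and 2335 times above blot in rRNA-depleted 1 and 2, and 1660 and 1053 times above it in polyA-enriched 1 and 2. On the 2 sides of blot, CG13731 had 0 counts in every library, and Sec3, of the exocyst complex, had between 35.1 and 62.4 CPM.

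Beside Hsromega, the neuropeptide receptor gene SIFaR lies 2128 bp before it on the opposite strand. SIFaR had 67.6 and 46.7 CPM in rRNA-depleted 2 and polyA-enriched 2, against 65.0 and 36.8 CPM in rRNA-depleted 1 and polyA-enriched 1 (log2 fold change by number 0.25, SE 0.38, edgeR's adjusted p 0.73). On the other side, 463 bp beyond its end and also on the opposite strand, lies aus, listed in the table as CG16791. It had 779.8 and 645.9 CPM, against 646.9 and 501.5 CPM (0.39, SE 0.23, edgeR's adjusted p 0.32). mir-4951, whose 150 bp lie inside the last part of Hsromega on the same strand, had 0 counts in every library. How reads that overlap more than 1 gene were counted was not given in the sources used here, so its 0 says nothing of the RNA there. The high level of Hsromega in the libraries numbered 2 was thus not seen in the genes next to it.

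Genes for proteins of the omega speckles were measured in full, with 15 of 15 listed genes tested. Their summed level was 5325 and 4618 CPM in rRNA-depleted 2 and polyA-enriched 2, against 5386 and 5208 CPM in rRNA-depleted 1 and polyA-enriched 1. By number, edgeR called 0 of the 15 (8.33% of all genes), DESeq2 called 0, and 4 had an unadjusted p under 0.05, as did 3365 of all 9737 genes. The median log2 fold change was -0.11, against 0.046 over all genes, with 5 of 15 above 0 and 10 below. The 3 most abundant were Hrb27C, Sxl and sqd. Hrb27C, an hnRNP, had 1375 and 1144 CPM in the libraries numbered 2, against 1220 and 1147 CPM in those numbered 1. Sxl, the RNA-binding switch protein of sex determination, had 702.6 and 618.2 CPM, against 758.4 and 747.8 CPM. The hnRNP gene sqd had 597.2 and 567.2 CPM, against 626.2 and 611.2 CPM.

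Among the other speckle genes, the highest log2 fold change by number was 0.99, for Mtor, a nuclear pore basket protein. Mtor had 208.4 and 187.4 CPM in rRNA-depleted 2 and polyA-enriched 2, against 108.3 and 102.4 CPM in rRNA-depleted 1 and polyA-enriched 1. Its groups did not overlap and edgeR's adjusted p was 0.036, but its fold change stayed under the threshold of 1. The same held in the other direction for Rb97D, an RNA-binding hnRNP, with 69.0 and 73.9 CPM in the libraries numbered 2, against 109.6 and 107.7 CPM in those numbered 1 (-0.53, SE 0.097, edgeR's adjusted p 0.047). The hnRNP gene Hrb87F had a log2 fold change of -0.64 (SE 0.14, edgeR's adjusted p 0.064), TBPH (the fly TDP-43) of -0.12 (SE 0.15) and Iswi, a chromatin remodelling ATPase, of 0.43 (SE 0.22), which did not pass. By label, edgeR also called 0 of the 15 (0% of all genes), as did DESeq2, none had an unadjusted p under 0.05, and the replicate block left 0 called (12.5% of all genes). The median was 0.18, against 0.043 over all genes, with log2 fold changes from 0.0011 up to 0.41.

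Heat shock response genes were listed because Hsromega is itself heat-inducible. Of 19 genes, 12 were tested, 7 had too few counts, and 4 of these had 0 counts in every library. Among the 4 were Hsp70Aa and Hsp70Ab, near-identical copies whose reads can match several places, so that these Hsp70 counts are uncertain. Hsp22 and Hsp67Bb, also at 0, overlap each other on the plus strand of chromosome 3L. How reads that overlap more than 1 gene were counted was not given, so their 0 says nothing of the RNA there. By number, edgeR called 0 of the 12 (8.33% of all genes), DESeq2 called 0, and 3 had an unadjusted p under 0.05, beside 3365 of all 9737 genes. The median log2 fold change was -0.10, and the values ran from -0.96 for Hsp26 up to 0.56 for stv. The gene with an adjusted p under 0.05 was Hsp67Bc, a small heat shock protein gene, at -0.74 (SE 0.11, edgeR's adjusted p 0.038), whose change stayed within the threshold of 1. Hsp70Bb, the Hsp70 copy with enough counts to be tested, had 18 and 17 counts in rRNA-depleted 2 and polyA-enriched 2, against 26 and 26 counts in rRNA-depleted 1 and polyA-enriched 1. Reads of Hsp70Bb can also match other Hsp70 copies, so its low counts in all 4 libraries do not give the level of Hsp70 RNA. A part of heat shock in the level of Hsromega was not tested.

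The 3 most abundant heat shock response genes were Hsp83, DnaJ-1 and Hsf. Hsp83, the fly Hsp90, had 207.5 and 674.8 CPM in rRNA-depleted 2 and polyA-enriched 2, against 161.1 and 591.7 CPM in rRNA-depleted 1 and polyA-enriched 1. Its values stood apart by label, with both polyA-enriched libraries above both rRNA-depleted ones. By label, edgeR called 0 of the 12 (0% of all genes) and 2 had an unadjusted p under 0.05. DESeq2 and the fit with the replicate block each called 1, which was Hsp83, lower in the rRNA-depleted libraries (-1.73, SE 0.099, edgeR's adjusted p 3.3e-24 with the block, where 12.1% of all genes were called lower). DnaJ-1, an Hsp40 co-chaperone, had 103.8 and 179.3 CPM in the libraries numbered 2, against 82.9 and 140.9 CPM in those numbered 1. Hsf, the heat shock transcription factor, had 125.3 and 115.6 CPM, against 123.6 and 120.5 CPM.

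Markers of cell types were set beside the members by number. The summed level of 8 neuron markers was 10469 and 8863 CPM in rRNA-depleted 2 and polyA-enriched 2, against 11381 and 9780 CPM in rRNA-depleted 1 and polyA-enriched 1. This sum joins genes that differed in both directions: 3 had a log2 fold change by number above 0 and 5 below, from -0.79 up to 0.99. For 8 glia markers the summed level was 3900 and 3709 CPM, against 6326 and 5593 CPM. This sum also joins genes that differed in both directions: 2 had a log2 fold change above 0 and 6 below, from -0.90 up to 0.75. Gs2, the most abundant of the 8, had 1091 and 1257 CPM, against 2467 and 2157 CPM. The 2 above 0 were repo and moody. repo, the defining glial transcription factor, had 178.8 and 199.1 CPM, against 125.4 and 130.4 CPM. moody had 62.4 and 94.0 CPM, against 41.8 and 55.9 CPM. The glial sum thus gives no number of glial cells. edgeR and DESeq2 each called 0 of 8 neuron and 0 of 8 glia markers by number (8.33% of all genes with edgeR), and 4 of each list had an unadjusted p under 0.05, beside 3365 of all 9737 genes. The part of a different make-up of cells in the level of Hsromega was not tested.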

How the data were processed

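RNA of 4 brain libraries was counted per gene. The authors used Trimmomatic to trim reads of 100 bp and STAR to align them to dm6, and deposited the raw featureCounts counts, neither normalized nor pooled. The annotation, the strand setting and the treatment of reads with several matches were not given in the sources used here. 0 count columns were left without a sample. Of 16729 rows, 4 without counts (Dscam1, para and a line of coordinates after each) were left out. Positions, classes and exon lengths came from the Ensembl annotation of BDGP6, which shares its coordinates with dm6. Of 16725 genes, 12510 were matched by symbol, 3996 by an older symbol and 219 not at all. No sequence is printed.

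CPM is counts per 1000000 of the library total. Counts were tested with edgeR 4.0.16 in R 4.3.3 (TMM, quasi-likelihood, Benjamini-Hochberg) on genes that reached 10 counts in 2 or more libraries, and with DESeq2 1.42.0 as the alternative. Genes were called at an adjusted p under 0.05 and a log2 fold change beyond 1. The scripts, run under Python 3.11.15, were tested on simulated data. Total depth was between 11838449 and 14295047 counts. Shares have 95% Wilson intervals.

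The labels give both groups the numbers 1 and 2, and the methods state that total RNA was split. Libraries of the same number deviated together from the means of their groups (Pearson's r 0.902 across genes), so the fit with the replicate block is printed where it changes a call. Nothing shows that libraries of a group came from separate animals beyond the study's statement of biological replicates. The p-values therefore measure the spread between these libraries. For the comparison by number, that may be the spread between preparations of the same extract. The genes and gene lists were chosen with earlier results of these data known. Named genes were the members, the 5 nearest profiles to each, the next 10 lncRNA genes by mean CPM with roX1 and roX2, overlapping and neighbouring genes, and in each list the called genes and the 3 most abundant. Yp1 to Yp3, Msp300, elav, repo and the other list genes named were added after their values were seen. Alternatives were other scalings, filters, blocks and classes, and leaving out each library, which for the levels was added after seeing the data.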

Additional observations from a re-analysis of the deposited data

How the results depend on the processing

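The count of genes called by label, 0 with edgeR, became 1214 with the replicate block, 548 with DESeq2, 255 with no filter and 153 with at least 10 counts in all 4 libraries, and between 0 and 457 when 1 library was left out (457 without rRNA-depleted 2, 377 without polyA-enriched 2). Pairing by the replicate block changed 1 other call, that of Hsp83, among the speckle and heat shock genes by label (1 with the block and 1 with DESeq2, against 0). The log2 fold change of Hsromega by label, 0.24, was between -3.21 and 3.16 without single libraries and kept its sign under the other scalings and filters. That of noe, -0.030, was 0.039 with DESeq2 and 0.039 with its size factors in edgeR. The 811 genes called by number became 1554 with the label as a block, 149 with no filter, and between 0 and 5 without 1 library. Of the speckle genes 1 was called by number, Mtor (higher), with TMM factors from protein-coding genes. The mean log2 ratio by number was 4.02 for Hsromega and between 3.87 and 4.16 without single libraries. For noe it was -0.073, or 0.0050 with TMM effective library sizes, and between -0.14 and -0.0055 without single libraries. The ncRNA share, 2.14% on average, was 1.16% with classes taken from symbol prefixes, which leave out both members. The cause of these changes was not tested, except that the prefix class lacks both genes. Counts per gene limit what can be said of single Hsromega transcripts, and 2 libraries a group leave the label difference of Hsromega poorly determined.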
